A study of Rattus norvegicus with 20 samples.

Results

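Skeletal muscle of Sprague Dawley rats was compared between hindlimb ischemia and sham operation, and the genes described here moved the same way in the gastrocnemius and in the soleus. All 20 poly(A) RNA-seq libraries of the series entered 1 additive model, with 10 ischemic libraries (labelled PAD, ischemia made by blocking the ilio-femoral artery with a catheter) against 10 sham libraries and the muscle as a second term. Each treatment held 5 libraries of either muscle, giving 4 groups. The time between operation and sampling, the age and the sex of the rats were not known here, and the labels do not say that the libraries came from separate rats, so the p-values measure the spread between these libraries. Of 21926 gene entries, 11693 had at least 1 FPKM (fragments scaled by gene length and sequencing depth) in at least 5 of the 20 libraries and were tested. Ischemia against sham differed at an adjusted p below 0.05 for 339 genes (2.9%), of which 240 were higher in ischemia (2.05%) and 99 lower (0.847%). These are the genes called below. When both muscles of a number were first averaged, since the labels leave unsaid whether they came from 1 rat, limma called 0 genes over 5 against 5 means, with 2364 at an unadjusted p below 0.05. With the same number in both muscles as a random block of all 20 libraries, limma called 354 genes, 297 of them among the 339. The correlation within a number in that fit was 0.049. All 339 had 1 sign in both muscles, a property that the additive model favours. Across all tested genes, 7878 (67.37%) had 1 sign in both.

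Muscle fibres are fed by capillaries whose endothelial cells sit on a basement membrane of collagen IV, laminins and nidogens, and fibroblasts between the fibres make the interstitial collagens. When an artery is blocked, muscle is known to respond with growth of capillaries and collateral vessels, remodelling of this matrix, and changes in how fibres burn fuel and degrade protein. In fibres, damaged or surplus proteins are marked with ubiquitin by ligases such as MuRF1 and are broken down by the proteasome, while chaperones keep other proteins folded.

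The libraries held 53.6 to 85.4 M counts. A slow minus fast fibre score (mean log2 level of slow fibre genes minus that of fast fibre genes) lay between -8.71 and -1.61 in gastrocnemius and between 2.11 and 6.05 in soleus, so the fibre markers separated the muscles as labelled. Sham soleus library 4 stood apart, with 8048 genes at 1 FPKM or more where the rest of its group had 10644 to 10876, 33.7% of its counts from mitochondrial genes, and a median correlation with its group of 0.777. Without it 1560 genes were called (13.3%), 793 higher (6.78%) and 767 lower (6.56%), and these included all 339. The number of genes at 1 FPKM also moved with the treatment. It was 9711 to 10520 in sham and 10051 to 11320 in ischemic gastrocnemius, and 11368 to 11789 in ischemic soleus, 943 more in ischemia on average (exact permutation test within muscles, two-sided, p = 0.00022, or p = 0.00041 without sham soleus 4). With that number added to the model as a covariate, an alternative chosen after seeing the data, edgeR called 0 genes, with 2587 at an unadjusted p below 0.05 against 2932 without the covariate. The part of this library measure in the results below was not tested.

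**Figure D1:**
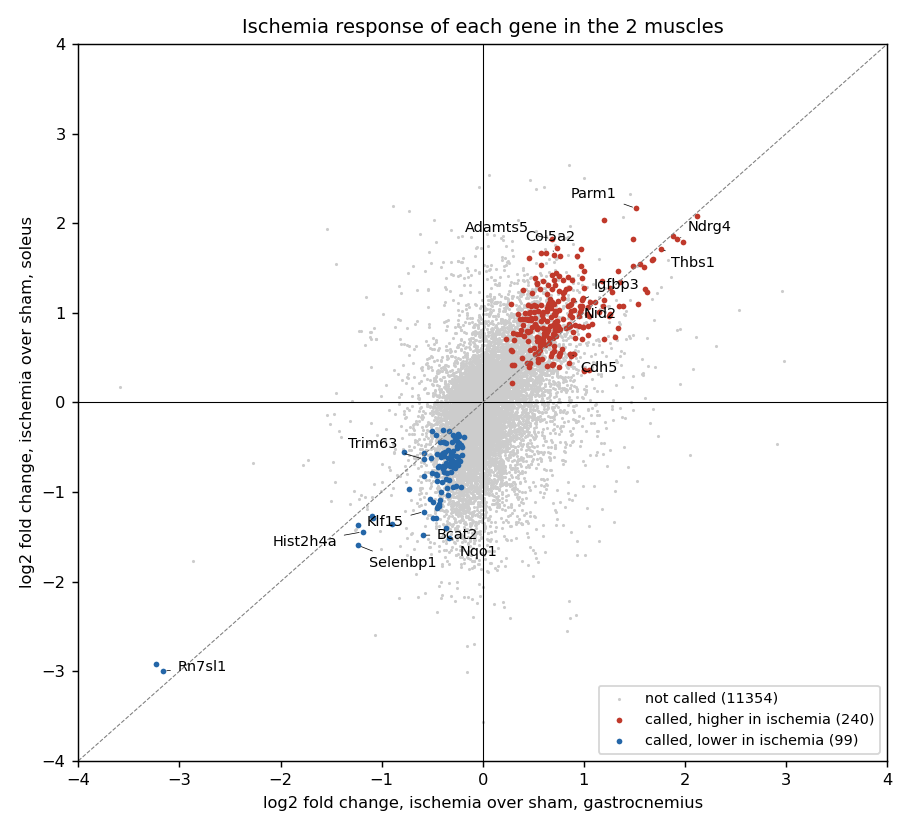
Log2 fold change of ischemia over sham in gastrocnemius (x axis) and in soleus (y axis) for the tested genes, with 4 genes outside the plotted range. The 240 genes called higher (red) lie in the upper right and the 99 called lower (blue) in the lower left, and grey points are genes not called.

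The shared response was made up of moderate changes. Among called genes the median log2 fold change was 0.82 for those higher in ischemia and -0.52 for those lower, and 77 changed by at least 1 on the log2 scale. In the stricter set, genes that were called and also had an unadjusted p below 0.05 with the same sign in each muscle, there were 228 genes (1.95% of those tested), 181 higher and 47 lower. The soleus moved further for 175 of the 240 risers and 91 of the 99 fallers, or for 147 and 79 when sham soleus 4 was left out. No difference in response between the muscles passed the threshold in the edgeR interaction test, for any of the 11693 genes (758 had an unadjusted p below 0.05, 19 of them called). Complete separation in both muscles, with every ischemic library on 1 side of every sham library, was seen for 39 tested genes (0.334%), 21 of them called. Within 1 muscle it was seen for 1.41% of tested genes in gastrocnemius and 13.5% in soleus.

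Most basement membrane genes rose in ischemia. Of 13 tested members, 8 were called higher (2.05% of all genes were) and none lower, and 12 had a positive fold change. The median log2 fold change of the list was 0.78, with 0.77 in gastrocnemius and 0.76 in soleus, against -0.03 over all tested genes. With the number of detected genes as a covariate the list median was 0.30. Called members were the nidogens Nid1 and Nid2, the laminin chains Lama4, Lama5 and Lamb1, the collagen IV chains Col4a1 and Col4a2, and Col18a1, whose collagen XVIII is the source of endostatin. Lamc1 (0.45 ± 0.18), Col15a1 (0.65 ± 0.27), Agrn (0.32 ± 0.15), Lama2 (0.28 ± 0.18) and Lamb2 (-0.04 ± 0.09, log2 fold change ± SE) did not pass.

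Nid2, which links the laminin and collagen IV networks, had the smallest p of all genes (chromosome 15, 4894213 to 4951917, minus strand, in the coordinates of the deposited table, of unknown build). Levels are counts per M library counts after TMM scaling (CPM). In gastrocnemius it had 17.7, 17.1, 16.7, 18.9 and 17.5 CPM in the sham libraries and 45.3, 25.3, 31.8, 33.4 and 27.1 CPM in the ischemic ones. In soleus the sham libraries had 13.1, 12.8, 13.9, 7.88 and 13.3 CPM and the ischemic ones 34.9, 17.4, 22.5, 35.1 and 24.7 CPM. Every ischemic library was above every sham library of its muscle, and the lowest value of all was that of sham soleus 4. The log2 fold change was 1.02 ± 0.14 with an adjusted p of 0.00771, and 0.95 with 0.00305 when sham soleus 4 was left out. With the number of detected genes as a covariate it was 0.71 ± 0.13 with an adjusted p of 0.138.

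Col4a1 and Col4a2 encode the chains of the most widespread collagen IV. Col4a1 stood at 197, 231, 98.3, 108 and 154 CPM in sham gastrocnemius and at 614, 157, 282, 328 and 244 CPM in ischemic gastrocnemius. Soleus values were 283, 234, 284, 224 and 248 CPM after sham operation and 543, 284, 369.9, 608 and 344 CPM after ischemia. The groups did not overlap in soleus, while ischemic gastrocnemius library 2 lay inside the sham range. The log2 fold change was 0.90 ± 0.22 for Col4a1 (adjusted p = 0.04) and 0.92 ± 0.22 for Col4a2 (adjusted p = 0.04). Col4a2 ranged over 46.1 to 108 CPM in sham and 77.3 to 281 CPM in ischemic gastrocnemius, and over 73.7 to 146 CPM and 137 to 318 CPM in soleus. In the RefSeq annotation of GRCr8 the starts of the pair face away from each other, and the 76 bases between them are printed because both genes rose (chr16:84885521-84885596, plus strand, 5′ to 3′, so Col4a1 lies to the right and Col4a2 to the left).
Col4a1-Col4a2: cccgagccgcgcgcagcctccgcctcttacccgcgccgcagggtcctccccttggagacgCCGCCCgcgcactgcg
Capitals mark the only match to a GC box (GGGCGG, either strand), which overlaps no match to the other motif searched there (CCAAT, either strand, not found in these bases). Of 33469 RefSeq promoters, 18.1% held the GC box in the 76 bases before the start, and the match is a description only.

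Nid1 rose by 1.13 ± 0.30 and Lama4 by 0.89 ± 0.22 on the log2 scale, with fold changes of 0.91 ± 0.32 in gastrocnemius and 0.87 ± 0.32 in soleus for Lama4, a laminin chain of vessel walls. Lama5, another alpha chain of endothelial basement membranes, had 9.02 to 15.9 CPM in sham and 17.6 to 28.2 CPM in ischemic gastrocnemius, with no overlap, and 12.4 to 21.0 CPM and 16.2 to 33.6 CPM in soleus, with overlap. Pxdn, a peroxidase that crosslinks collagen IV, was outside the list and was named by its size of change in both muscles. It rose by 1.35 ± 0.31 on the log2 scale (adjusted p = 0.0371), and by 1.22 without sham soleus 4.

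**Figure D2:**
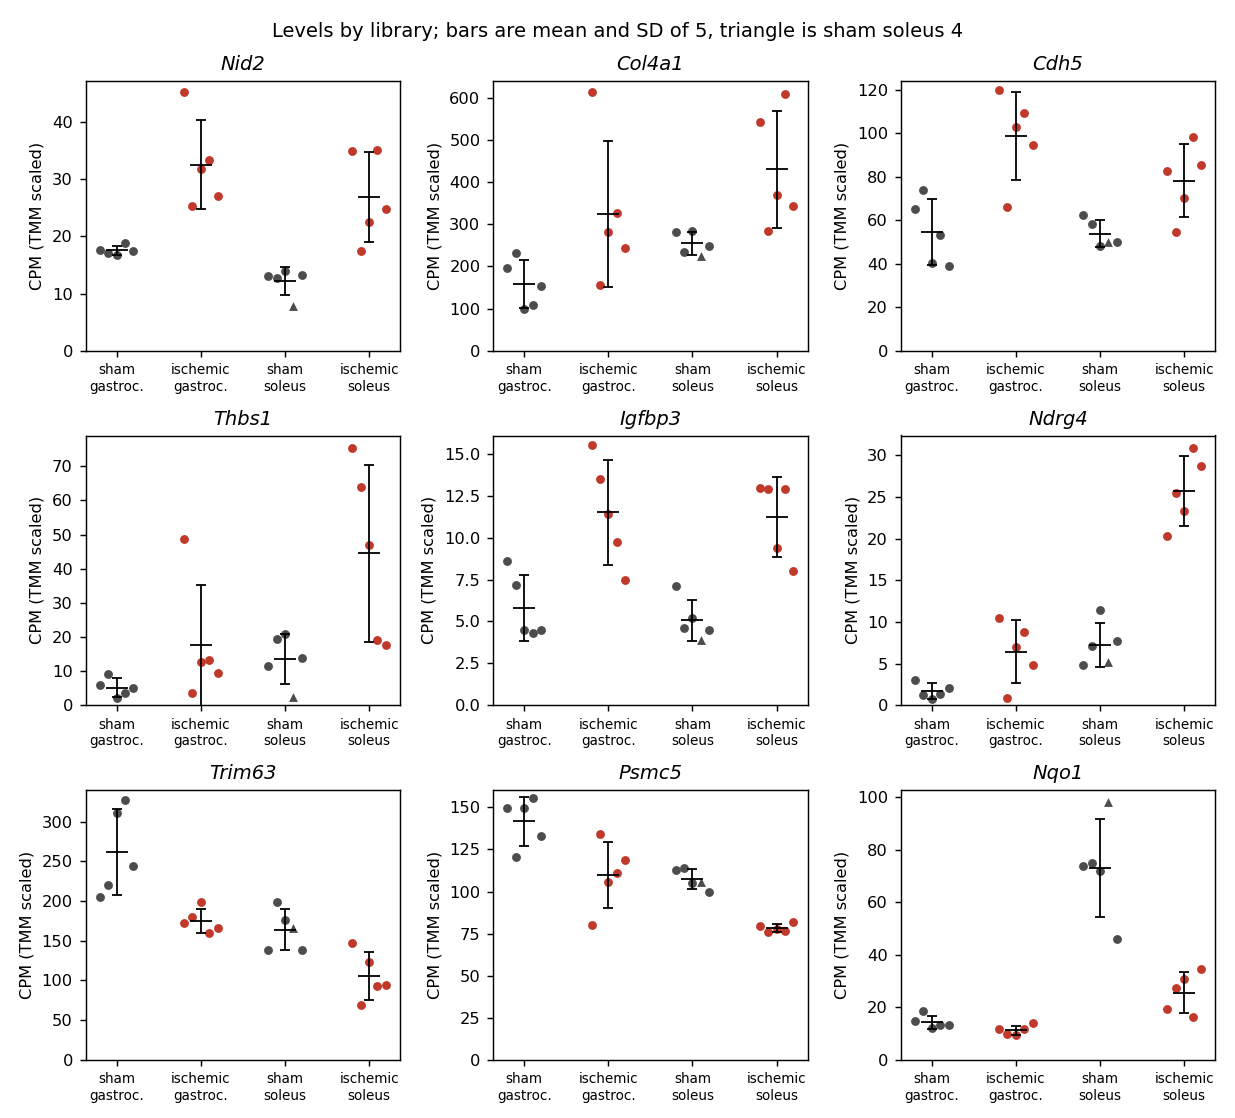
TMM-scaled CPM (y axis, from 0) of 9 genes in each library of the 4 groups (x axis), with bars for mean and SD of 5 libraries and a triangle for sham soleus 4. Nid2 separates ischemic from sham libraries in both muscles, whereas Nqo1 does so in soleus alone.

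Part of the endothelial and angiogenic genes rose as well. Of 21 endothelial markers tested, 4 were called higher (2.05% of all genes were) and none lower. A positive fold change was seen for 19, of which 14 were positive in both muscles, and the list median was 0.51. Without sham soleus 4, 9 were called higher (Cdh5, Vwf, Tie1, Ptprb, Cd93, Mmrn2, Nos3, Clec14a and Erg, with 6.78% of all genes) and all 21 fold changes were positive. With the number of detected genes as a covariate the median was 0.28. The summed level of the list was 238 to 488 CPM in sham and 412 to 664 CPM in ischemic gastrocnemius, and 375 to 480.1 CPM and 448 to 649 CPM in soleus. The ranges overlap in both muscles. In whole muscle, more endothelial cells and more RNA per endothelial cell cannot be told apart, and the same holds for every other cell type named below.

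Cdh5 encodes VE-cadherin, the adhesion protein of endothelial junctions. Its level was 65.4, 73.9, 40.5, 53.4 and 39.1 CPM in sham gastrocnemius and 120.1, 66.4, 103, 109 and 94.6 CPM in ischemic gastrocnemius. The soleus had 62.6, 58.2, 48.4, 50.1 and 49.9 CPM in sham libraries and 82.8, 54.7, 70.3, 98.5 and 85.4 CPM in ischemic ones. In each muscle 1 ischemic library, number 2, lay within the sham range and the other 4 lay above it. The log2 fold change was 0.70 ± 0.14 (adjusted p = 0.0348, and 0.0106 without sham soleus 4). Cd93, a lectin-like receptor of endothelial cells, rose by 1.17 ± 0.29 on the log2 scale with no overlap in either muscle, but its sham soleus 4 value was far below the rest and the change was 1.03 without that library. Tie1, an endothelial receptor kinase, and Clec14a, an endothelial lectin-like protein, rose by 0.72 ± 0.19 and 0.66 ± 0.17. The marker Flt1 (0.11 ± 0.23), a VEGF receptor, did not pass.

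Of 18 angiogenic factors and receptors tested, 5 were called higher (2.05% of all genes were), none was called lower, and the list median was 0.54. Without sham soleus 4, 9 were called higher (Nrp1, Pdgfb, Notch1 and Vegfc in addition, with 6.78% of all genes). DESeq2 called 10 with all libraries (709 of all 11693 genes were called higher). Among the ligands, Apln, the peptide that signals through the receptor Aplnr, had 4.96, 4.88, 1.23, 1.07 and 2.52 CPM in sham and 9.72, 2.31, 8.58, 8.06 and 6.37 CPM in ischemic gastrocnemius. In soleus Apln had 5.76, 3.40, 4.80, 0.875 and 4.66 CPM and 5.69, 8.09, 13.6, 9.90 and 10.2 CPM, so the groups overlapped in both muscles. Apln rose by 1.27 ± 0.34 (adjusted p = 0.0471) and its receptor by 0.82 ± 0.21 (adjusted p = 0.0451). Dll4, the Notch ligand of sprouting tip cells, rose by 0.62 ± 0.14, and Nrp2, a co-receptor for semaphorins and VEGF-C, by 1.23 ± 0.28 on the log2 scale. Vegfa, the main hypoxia-induced growth factor of endothelium, had 86.6 to 439.6 CPM in sham and 136 to 362 CPM in ischemic gastrocnemius and did not pass (0.30 ± 0.25, adjusted p = 0.467). Vegfc (0.78 ± 0.21, adjusted p = 0.0522) passed when sham soleus 4 was left out (0.0298).

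Thbs1, a secreted inhibitor of angiogenesis, had the largest rise of the angiogenic list. Sham gastrocnemius libraries had 5.86, 9.15, 2.01, 3.69 and 5.18 CPM and ischemic ones 48.6, 3.72, 12.7, 13.2 and 9.39 CPM. Sham soleus libraries had 11.4, 19.3, 20.8, 2.28 and 13.98 CPM and ischemic ones 75.2, 63.8, 46.8, 19.1 and 17.6 CPM. Ischemic libraries 1 of both muscles were the highest of their groups, and the groups overlapped in both muscles. The log2 fold change was 1.74 ± 0.44 (adjusted p = 0.0435), 1.61 without sham soleus 4, and 0.59 ± 0.40 with the number of detected genes as a covariate. Pericyte and smooth muscle markers had 0 of 12 called in edgeR, and 4 had an unadjusted p below 0.05 (2932 of all 11693 genes did). DESeq2 called 3 higher (709 of all genes were). Without sham soleus 4, edgeR called 3 (Pdgfrb, Notch3 and Cspg4, all higher, with 6.78% of all genes).

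**Figure D3:**
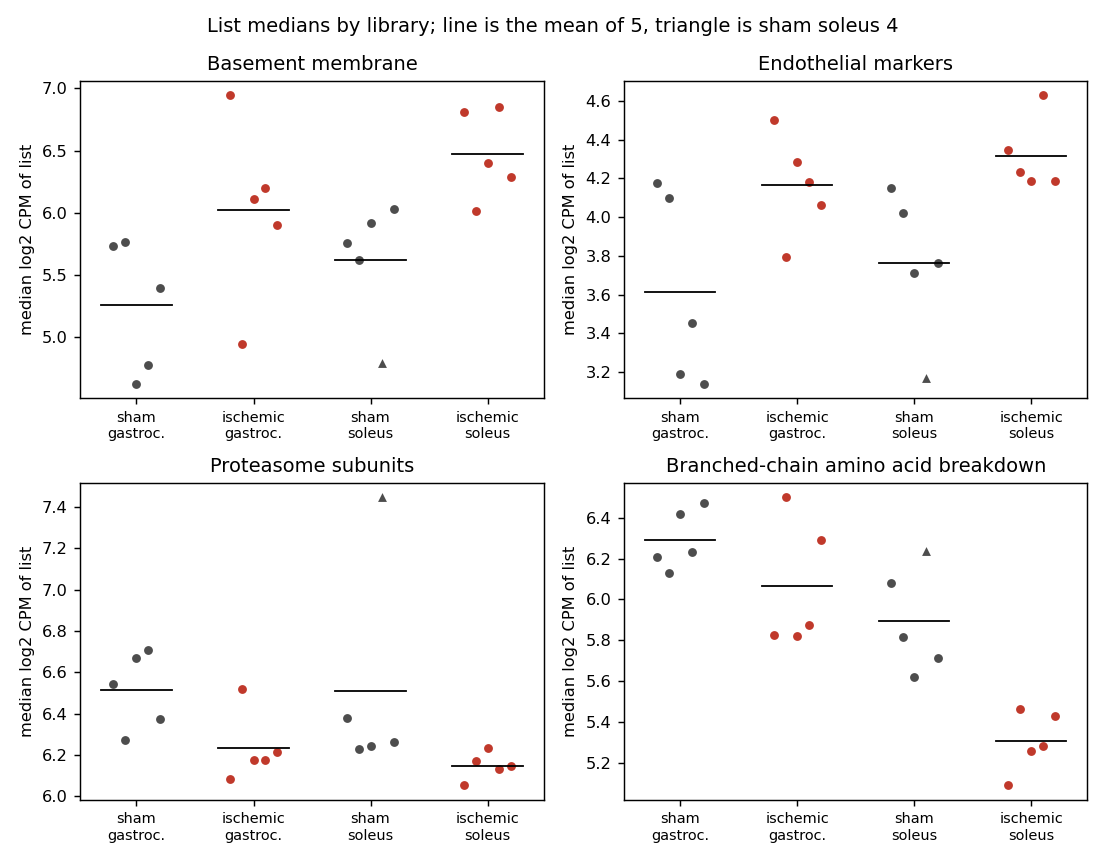
Median log2 CPM (y axis) over the members of 4 gene lists in each library of the 4 groups (x axis), with lines for group means and a triangle for sham soleus 4. The basement membrane list of ischemic gastrocnemius library 2, at 4.95, sits among the sham libraries, and sham soleus 4 is the highest proteasome value at 7.45.

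Interstitial matrix genes had larger fold changes in soleus than in gastrocnemius, with medians of 1.36 and 0.50, although no member's difference between the muscles passed the threshold. All 26 tested members had a positive fold change, 25 of them in both muscles. In the additive fit 5 were called higher (2.05% of all genes were), and the median was 0.90. When sham soleus 4 was left out, 10 were called higher (6.78% of all genes were). DESeq2 called 13 higher with all libraries (709 of all 11693 genes were). With the number of detected genes as a covariate the median was 0.39. The called members were Col5a2 and Col5a3, chains of the fibril-regulating collagen V, Col6a1 of the pericellular collagen VI, the elastic fibre protein Fbln2 and the aggrecan-cutting protease Adamts5. Adamts5 had log2 fold changes of 0.68 ± 0.38 in gastrocnemius and 1.83 ± 0.38 in soleus, and Col5a2 of 0.70 ± 0.37 in gastrocnemius and 1.64 ± 0.38 in soleus. The most abundant fibrillar collagens did not pass: Col1a1 had 0.83 ± 0.51 and Col3a1 1.19 ± 0.44.

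Fibroblast markers had 3 of 13 called higher (2.05% of all genes were). All 13 fold changes were positive, 9 of them in both muscles. The median was 0.64, with 0.14 in gastrocnemius and 1.16 in soleus, or 0.35 with the number of detected genes as a covariate. Smoc2, a matrix-associated calcium-binding protein, ranged over 23.1 to 43.1 CPM in sham and 21.7 to 97.5 CPM in ischemic gastrocnemius, and over 31.9 to 49.3 CPM and 77.4 to 124 CPM in soleus. The soleus groups did not overlap and the gastrocnemius groups did, and the log2 fold change was 1.04 ± 0.20 (adjusted p = 0.0348). Pdgfra, a growth factor receptor found on fibro-adipogenic progenitors, rose by 0.82 ± 0.21 and Cd34, shared by these cells and endothelium, by 1.03 ± 0.27. The summed fibroblast level was 277 to 1101 CPM in sham and 284 to 1110 CPM in ischemic gastrocnemius, but 467 to 1174 CPM against 1221 to 1704 CPM in soleus, where the groups did not overlap. Macrophage markers had 0 of 19 called in edgeR (6 at an unadjusted p below 0.05, 3 called by DESeq2) and a median of 0.58. Of all 11693 genes, 2932 had an unadjusted p below 0.05 in edgeR, and DESeq2 called 709 higher and 610 lower. Summed macrophage levels were 113 to 404 CPM and 92.5 to 463 CPM in gastrocnemius and 140.2 to 637 CPM and 393 to 636 CPM in soleus. Schwann cell markers had 0 of 6 called in edgeR (1 at an unadjusted p below 0.05, 0 by DESeq2), 6 positive and a median of 0.50, with summed levels of 25.2 to 128 CPM and 24.4 to 205 CPM in gastrocnemius and 79.96 to 157 CPM and 122 to 224 CPM in soleus, sham and ischemic in that order. Adipocyte markers had a median of 0.67 (0.16 in gastrocnemius and 1.28 in soleus), with 7 of 8 positive, 4 of them in both muscles. In edgeR 0 of these markers were called (0 at an unadjusted p below 0.05, 0 by DESeq2). Their summed levels were 127 to 712 CPM and 117 to 749 CPM in gastrocnemius and 794 to 1658 CPM and 999 to 1300.4 CPM in soleus, so the groups of both lists overlapped. No endothelial, fibroblast, macrophage, Schwann cell or adipocyte marker was at 0 in every library, and their part in the matrix genes was not tested.

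Across all genes, the risers named by the smaller of their 2 muscle responses were led by Gnas, Ndrg4, Mill1, Thbs1, Col8a1, Lamb3, Cilp, Parm1, Gpnmb, Nox4, Dpysl3 and Pxdn, with log2 fold changes from 1.35 to 1.88. The Gnas entry overlaps a second Gnas entry on the same strand, so its count is uncertain. Ndrg4, a cytoplasmic protein of the NDRG family, showed 3.09, 1.20, 0.716, 1.34 and 2.12 CPM in sham and 10.5, 0.823, 7.03, 8.86 and 4.89 CPM in ischemic gastrocnemius. Its soleus libraries had 4.87, 7.16, 11.4, 5.16 and 7.66 CPM after sham operation and 20.3, 25.4, 23.3, 30.9 and 28.8 CPM after ischemia. The soleus groups were far apart, and in gastrocnemius only ischemic library 2 fell within the sham range. Its rise of 1.87 ± 0.32 on the log2 scale (adjusted p = 0.0171) was 1.83 without sham soleus 4.

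Nox4, an NADPH oxidase that makes hydrogen peroxide, had 2.09, 1.27, 0.855, 1.30 and 1.93 CPM in sham and 7.39, 0.823, 4.37, 4.37 and 3.96 CPM in ischemic gastrocnemius. In soleus it had 1.90, 1.63, 4.28, 4.10 and 3.30 CPM and 10.6, 9.15, 5.53, 7.52 and 10.7 CPM, without overlap, while ischemic gastrocnemius library 2 was below the lowest sham library. It rose by 1.50 ± 0.29 (adjusted p = 0.0348). Parm1, a mucin-like membrane protein, ranged over 1.31 to 4.31 CPM in sham and 2.26 to 14.5 CPM in ischemic gastrocnemius, and over 3.22 to 4.27 CPM and 8.42 to 32.9 CPM in soleus, and rose by 1.84 ± 0.32. Cilp, a secreted matrix protein, rose by 1.55 ± 0.40, Col8a1, a collagen of vessel walls, by 1.64 ± 0.35, Lamb3, a laminin beta chain, by 1.63 ± 0.42, and Gpnmb, a glycoprotein of macrophages and other cells, by 1.56 ± 0.40. Ischemic gastrocnemius library 2, which did not exceed the sham range for Col4a1, Ndrg4 and Nox4, also had the lowest fibre score of all libraries (-8.71), and 10051 genes at 1 FPKM. Without it 1001 genes were called.

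The genes of the next smallest p-values were chosen after their values were seen. Igfbp3, a binding protein of insulin-like growth factors, had 8.64, 7.15, 4.51, 4.34 and 4.47 CPM in sham and 15.5, 13.5, 11.4, 9.76 and 7.47 CPM in ischemic gastrocnemius. In soleus it had 7.11, 4.62, 5.22, 3.88 and 4.50 CPM and 12.96, 12.9, 9.38, 12.9 and 7.99 CPM, with no overlap there and overlap of the gastrocnemius groups. It rose by 1.07 ± 0.17 on the log2 scale (adjusted p = 0.0171), with 0.99 ± 0.25 in gastrocnemius and 1.15 ± 0.25 in soleus. Enpp1, the ectoenzyme that makes pyrophosphate outside the cell, rose from 5.37 to 8.73 CPM to 9.09 to 14.2 CPM in gastrocnemius and from 6.59 to 8.03 CPM to 10.0 to 14.9 CPM in soleus. Its groups did not overlap in either muscle, and the log2 fold change was 0.73 ± 0.12. Kit, the receptor of stem cell factor, rose by 1.25 ± 0.22, the transcription factor gene Ebf1 by 0.85 ± 0.15, and Magi3, a scaffold of cell junctions, by 1.06 ± 0.18, with adjusted p-values of 0.0203, 0.0171 and 0.0171. Igf1, the growth factor itself, was called with 0.98 ± 0.22.

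Among genes of calcium release, Ryr3, Itpr2 and Itpr3 rose. Of 15 tested, 3 were called higher (2.05% of all genes were) and none lower, although the list median was -0.22. Ryr3, the minor ryanodine receptor of muscle, had 4.31, 3.70, 2.48, 3.42 and 3.45 CPM in sham and 16.0, 2.85, 11.8, 9.29 and 10.6 CPM in ischemic gastrocnemius. Its soleus libraries had 35.1, 32.3, 54.4, 6.94 and 31.4 CPM and 80.5, 74.6, 59.0, 60.8 and 69.4 CPM, without overlap, and the lowest of them was sham soleus 4. Ryr3 rose by 1.32 ± 0.28 (adjusted p = 0.0348), the inositol trisphosphate receptors Itpr2 by 0.83 ± 0.18 and Itpr3 by 0.65 ± 0.14. The main release channel Ryr1 (-0.49 ± 0.21) and its voltage sensor Cacna1s (-0.53 ± 0.15) did not pass. Without sham soleus 4, 4 members of the list were called higher (6.78% of all genes were). Cacna1s, the store sensor Stim1 and its channel Orai1 were called lower in that fit (6.56% of all genes were).

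**Figure D4:**
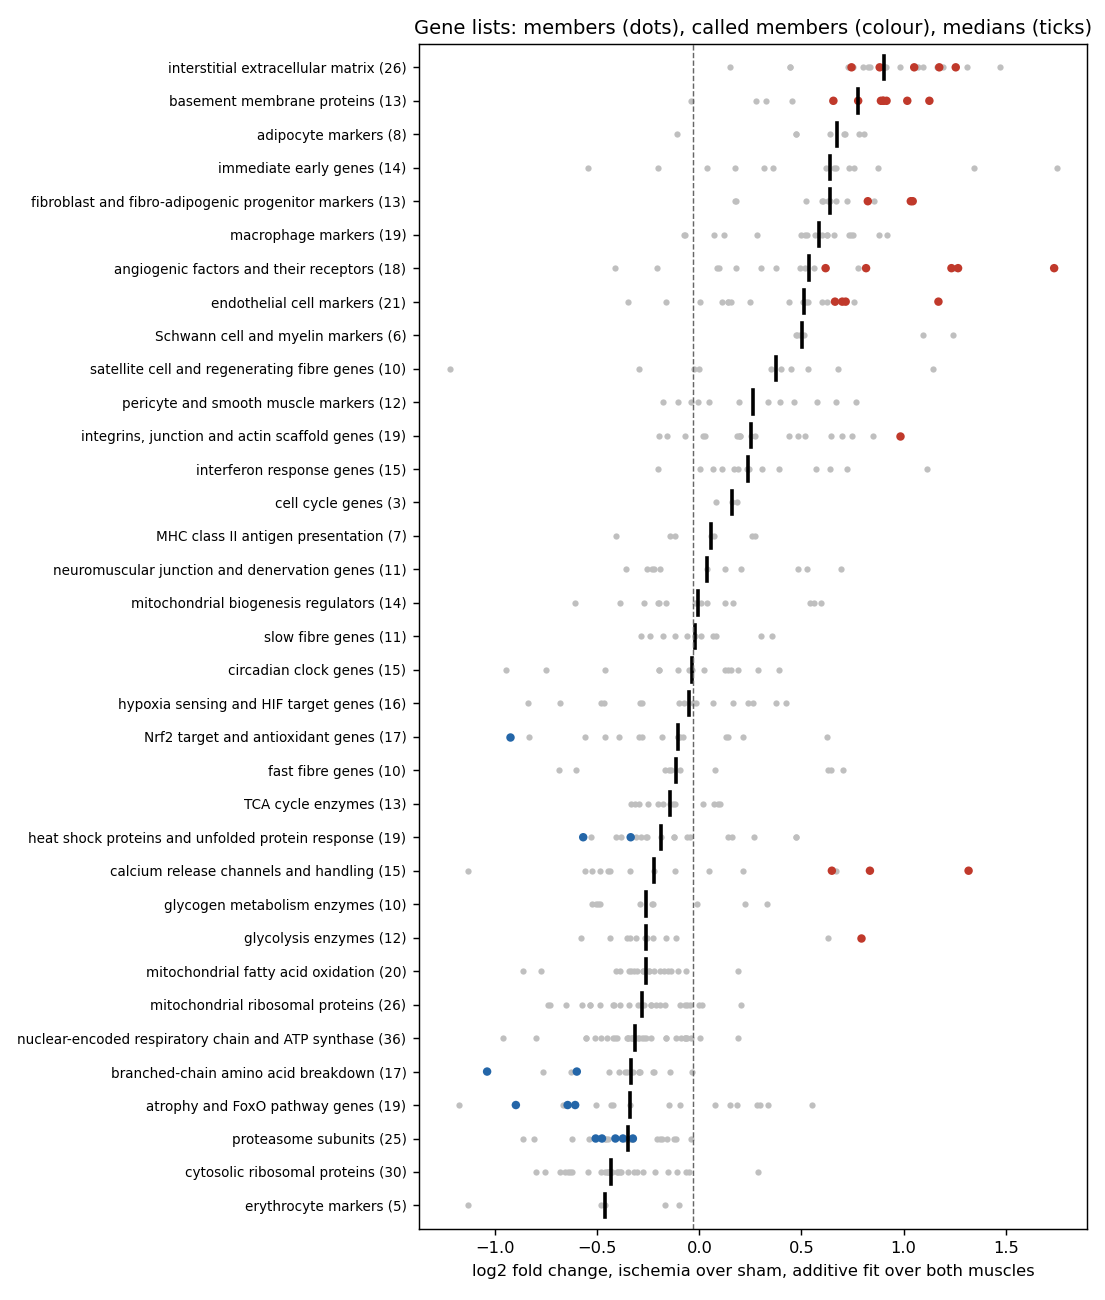
Log2 fold change of ischemia over sham (x axis) for each tested member of 35 gene lists (y axis, number of members in brackets), with called members in red or blue, list medians as ticks and the median of all genes as a dashed line. All 26 interstitial matrix members lie right of 0 and all 25 proteasome members left of it.

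Proteasome subunits had lower values in ischemia. All 25 tested subunits had a negative fold change, 24 of them in both muscles, and 5 were called lower (0.847% of all genes were), with a median of -0.35. Without sham soleus 4 the median was -0.23 and 17 were called lower (6.56% of all genes were). The called members were the ATPase subunits Psmc1, Psmc2 and Psmc5 and the regulatory particle subunits Psmd4 and Psmd12. Psmc5 had 149.8, 120.2, 149.9, 155 and 133 CPM in sham and 80.3, 134, 105, 111 and 119 CPM in ischemic gastrocnemius. In soleus it had 113, 114, 105, 105 and 99.5 CPM and 79.2, 76.0, 77.5, 76.3 and 82.1 CPM, with every ischemic library below every sham library. Gastrocnemius libraries overlapped, and the log2 fold change was -0.41 ± 0.09 (adjusted p = 0.0348, and 0.00852 without sham soleus 4). The Psmc5 and Psmc1 models each overlap another model on the same strand, so part of their counts is uncertain. The size depended on scaling. With library totals alone all genes shifted by a median of 0.19, and the proteasome median was -0.10. The proteasome median was -0.14 with the number of detected genes as a covariate.

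The called genes of muscle atrophy were all lower in ischemia. Of 19 tested, 12 had a negative fold change, and the median was -0.34. Called lower were 3 (Trim63, Klf15 and Foxo4, with 0.847% of all genes), and none was called higher. With sham soleus 4 left out, 8 were called lower (Sqstm1, Bnip3, Fbxo32, Map1lc3a and Map1lc3b in addition, with 6.56% of all genes), none higher, and the median was -0.20. DESeq2 called 5 lower with all libraries (610 of all 11693 genes were). The median was -0.15 with the number of detected genes as a covariate. With library totals alone the list median was -0.05 against 0.19 for all genes. Trim63 encodes the ubiquitin ligase MuRF1. Its level was 205, 220.4, 311, 327 and 245 CPM in sham and 172, 179, 199, 159 and 165 CPM in ischemic gastrocnemius, without overlap. Soleus libraries had 139, 199, 177, 165 and 139 CPM in sham and 148, 69.2, 124, 92.8 and 93.7 CPM in ischemia, where 1 ischemic library overlapped the sham range. The log2 fold change was -0.61 ± 0.13 (adjusted p = 0.0348), with -0.58 ± 0.19 in gastrocnemius and -0.64 ± 0.19 in soleus. Klf15, a glucocorticoid-induced transcription factor of amino acid use, fell by 0.90 ± 0.18 on the log2 scale and by 0.74 without sham soleus 4, its highest library. Foxo4, a FoxO transcription factor, had -0.64 ± 0.15. Fbxo32, the ligase atrogin-1, had -0.67 ± 0.35 and did not pass with all libraries (adjusted p = 0.24), but did without sham soleus 4 (-0.83, adjusted p = 0.0465). The promoter of Trim63 is printed because glucocorticoid receptor and FoxO sites are known to drive this gene in mouse (RefSeq, GRCr8, chr5:151816986-151817235, plus strand, the 250 bases before the start).
Trim63: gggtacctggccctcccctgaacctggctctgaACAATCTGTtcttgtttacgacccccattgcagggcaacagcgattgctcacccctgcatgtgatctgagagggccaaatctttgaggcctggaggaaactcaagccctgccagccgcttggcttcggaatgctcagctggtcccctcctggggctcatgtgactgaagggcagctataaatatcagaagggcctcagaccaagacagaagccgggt
Capitals mark its 1 match to the paired receptor motif ACANNNTGT, searched on both strands. Of 33469 RefSeq promoters, 5.81% held this motif in 250 bases, and the match says nothing of binding in these muscles.

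The constitutive chaperones Hspa8 and Hsp90ab1 fell in ischemia. Of 19 heat shock and unfolded protein genes tested, 2 were called lower (0.847% of all genes were) and none higher. The list median of -0.19 turned to 0.10 with library totals alone. Hspa8, the constitutive HSC70, had 749, 820.3, 732, 736 and 722 CPM in sham and 596, 669, 599.8, 615 and 635 CPM in ischemic gastrocnemius. In soleus it had 865, 886, 919, 928 and 809 CPM and 669, 693, 794, 565 and 618 CPM, and the groups did not overlap in either muscle. It changed by -0.34 ± 0.08 (adjusted p = 0.0417), and 3 small nucleolar RNA genes lie within its model on the same strand. Hsp90ab1, the constitutive HSP90, had 1495 ± 131 CPM in sham and 1138 ± 210.5 CPM in ischemic gastrocnemius, and 2079.5 ± 380.1 CPM and 1242 ± 181 CPM in soleus (mean ± SD, n = 5). Its log2 fold change was -0.57 ± 0.12 (adjusted p = 0.0355). Cofactors outside the list that were called lower, chosen after their values were seen, included Dnajc2 (-0.56 ± 0.10), a ribosome-associated J protein, Ahsa1 (-0.35 ± 0.09), an activator of HSP90, and Cacybp (-0.41 ± 0.08), a calcyclin-binding protein. Dnajc2 had 71.4 to 80.1 CPM in sham and 39.4 to 65.9 CPM in ischemic gastrocnemius, and 76.7 to 90.8 CPM and 45.2 to 56.4 CPM in soleus, with no overlap in either muscle. Dnajb1, the inducible HSP40, had 0.47 ± 0.15 and was called higher without sham soleus 4. The Hspa8 promoter is printed because it holds matches to the heat shock element (RefSeq, GRCr8, chr8:50080264-50080513, plus strand, the 250 bases before the start).
Hspa8: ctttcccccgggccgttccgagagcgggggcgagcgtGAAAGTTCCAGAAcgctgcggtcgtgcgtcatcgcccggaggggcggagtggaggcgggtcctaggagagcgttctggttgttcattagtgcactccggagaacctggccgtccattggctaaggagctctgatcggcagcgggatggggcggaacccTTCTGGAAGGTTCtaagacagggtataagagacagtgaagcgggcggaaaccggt
Capitals mark 2 matches to 3 heat shock units in a row (GAA, its complement and GAA again, each pair of units parted by 2 free bases), searched on both strands. Of 33469 RefSeq promoters, 0.663% held this element in 250 bases, and the match is a description only.

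The enzymes of branched-chain amino acid breakdown had lower values in ischemia. All 17 tested members had a negative fold change, 14 in both muscles, with a median of -0.34 (-0.12 in gastrocnemius and -0.60 in soleus), and 2 were called lower (0.847% of all genes were). Without sham soleus 4, 9 were called lower (6.56% of all genes were). DESeq2 called 8 lower with all libraries (610 of all 11693 genes were). Bcat2, the mitochondrial transaminase that starts the pathway, had 90.4, 74.5, 147, 147 and 91.1 CPM in sham and 52.4, 125, 56.6, 51.4 and 78.3 CPM in ischemic gastrocnemius. In soleus it had 61.2, 56.4, 48.8, 217 and 52.4 CPM and 34.0, 26.9, 32.6, 26.9 and 35.6 CPM. Soleus groups did not overlap, gastrocnemius groups did, and the highest value was that of sham soleus 4. The log2 fold change of -1.04 ± 0.28 (adjusted p = 0.0498) became -0.70 without that library. Auh, an enzyme of leucine breakdown, had -0.60 ± 0.16. With library totals alone the list median was -0.14 against 0.19 for all genes.

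Nqo1, a quinone reductase induced by Nrf2, was the 1 called member of 17 antioxidant genes, and was lower (0.847% of all genes were called lower). Without sham soleus 4, 4 were called lower (Gpx4, Keap1 and Sod1 in addition, with 6.56% of all genes). DESeq2 also called 4 lower with all libraries (610 of all 11693 genes were). The list median of -0.10 turned to 0.08 with library totals alone. Its gastrocnemius libraries had 14.6, 18.4, 11.9, 13.2 and 13.1 CPM in sham and 11.6, 9.77, 9.61, 11.6 and 13.8 CPM in ischemia. Its soleus libraries had 73.7, 75.0, 72.1, 98.4 and 46.0 CPM and 19.2, 27.3, 30.7, 16.2 and 34.6 CPM. The soleus groups were far apart and the gastrocnemius groups overlapped. The log2 fold changes were -0.34 ± 0.21 in gastrocnemius and -1.51 ± 0.22 in soleus, with an unadjusted interaction p of 0.000955 and an adjusted one of 0.721 in edgeR. The additive value was -0.93 ± 0.20 (adjusted p = 0.036), with the larger change in soleus.

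The other large fallers were Rn7sl1, Selenbp1, Hist2h4a, Zfp365, Asb9, Nkain1, Dym, Kiaa0408L and Uxt. Selenbp1, a selenium-binding methanethiol oxidase, had 5.88, 4.41, 6.18, 5.44 and 5.79 CPM in sham and 1.04, 2.81, 2.73, 3.59 and 1.61 CPM in ischemic gastrocnemius, without overlap. In soleus it had 14.2, 15.5, 7.46, 33.1 and 9.90 CPM and 1.99, 9.65, 4.56, 4.32 and 5.96 CPM, with overlap, and its log2 fold change was -1.42 ± 0.29. Hist2h4a, a histone H4 gene with near-identical copies that can share reads, had 1.97 to 3.63 CPM in sham and 0.693 to 2.22 CPM in ischemic gastrocnemius, and 2.86 to 4.82 CPM and 0.761 to 2.21 CPM in soleus. It changed by -1.32 ± 0.23. Rn7sl1, the RNA of the signal recognition particle, was at 14.5, 0.392, 2.92, 0.163 and 0.320 CPM in sham gastrocnemius and 0.356, 0.310, 0.211, 7.25 and 1.28 CPM in sham soleus. Its fitted log2 fold change of -3.08 ± 0.78 came with wide differences among the sham libraries. All ischemic libraries had 0.181 to 0.846 CPM, and sham gastrocnemius 1 and 3 and sham soleus 4 and 5 exceeded that range while the other sham libraries did not. Asb9, a substrate adaptor of ubiquitin ligases, had -0.85 ± 0.18, and Uxt, a prefoldin-like protein, -0.80 ± 0.21 with all libraries and -0.51 without sham soleus 4.

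Other pathways that respond to low oxygen or to disuse had no shared call in edgeR, apart from 1 of 12 glycolysis enzymes tested. That enzyme gene, Hk1, was called higher (2.05% of all genes were), while 10 of the 12 had a negative fold change. Of 16 hypoxia sensing and HIF target genes 0 were called, and 7 had an unadjusted p below 0.05 (2932 of all 11693 genes did). DESeq2 called 1 of them higher and 2 lower (709 and 610 of all genes were). Hif1a, the oxygen-regulated subunit, had 0.24 ± 0.22 (adjusted p = 0.505). Without sham soleus 4 the prolyl hydroxylases Egln1 and Egln3, the demethylase Kdm3a and Ankrd37 were called lower (6.56% of all genes were). Vhl was called higher in that fit (6.78% of all genes were). Ppargc1a, the coactivator of mitochondrial biogenesis, had 0.56 ± 0.23 (adjusted p = 0.149). Nuclear-encoded respiratory chain genes had 0 of 36 called in edgeR (4 at an unadjusted p below 0.05, 0 by DESeq2) and a median of -0.32, which was -0.08 without sham soleus 4 and 0.02 with library totals alone, below the all-gene shift of 0.19. Slow fibre genes had medians of opposite sign in the muscles, 0.78 in gastrocnemius and -0.72 in soleus, and 0 of 11 were called by edgeR, by DESeq2 or at an unadjusted p below 0.05. Myh7, the slow myosin heavy chain, had 0.78 ± 0.80 in gastrocnemius and -0.65 ± 0.80 in soleus, and Myh4, a fast one whose model overlaps Myh8, had -0.53 ± 0.61 in gastrocnemius and 0.25 ± 0.61 in soleus. Satellite cell genes had 0 of 10 called, junction and denervation genes 0 of 11, interferon genes 0 of 15 and circadian genes 0 of 15, with 2, 2, 2 and 1 at an unadjusted p below 0.05 and 2, 0, 1 and 1 called by DESeq2.

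The number of called genes depended on single libraries. Leaving out 1 library at a time gave 9 to 1560 called genes. It gave 9 without ischemic gastrocnemius 1 or 4, 10 to 15 without sham gastrocnemius 3, 4 or 5, sham soleus 1, 2 or 5 or ischemic soleus 1, 3 or 4, and 36 to 80 without ischemic gastrocnemius 3, sham soleus 3 or ischemic soleus 2 or 5. It gave 193 without sham gastrocnemius 2, 324 without ischemic gastrocnemius 5, and 979 to 1560 without sham gastrocnemius 1, ischemic gastrocnemius 2 or sham soleus 4. Leaving out a number in both muscles gave 0 called genes in edgeR without ischemic 1 or 4 or sham 3 or 5, with 1818, 2112, 2709 and 2926 genes at an unadjusted p below 0.05, and DESeq2 was not run on these subsets. It gave 1 without ischemic 3, 4 without sham 2, 142 without ischemic 5, and 700 to 1393 without ischemic 2, sham 1 or sham 4. Many adjusted p-values lay just under the threshold, which limits how firmly the single calls can be read. Nid2 passed in 40 of 47 alternatives, Enpp1 and Igfbp3 in 39, Ebf1, Hist2h4a and Ndrg4 in 38, Magi3 and Parm1 in 37, Dnajc2 in 35 and Kit in 34, which are the highest numbers among the called genes.

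**Figure D5:**
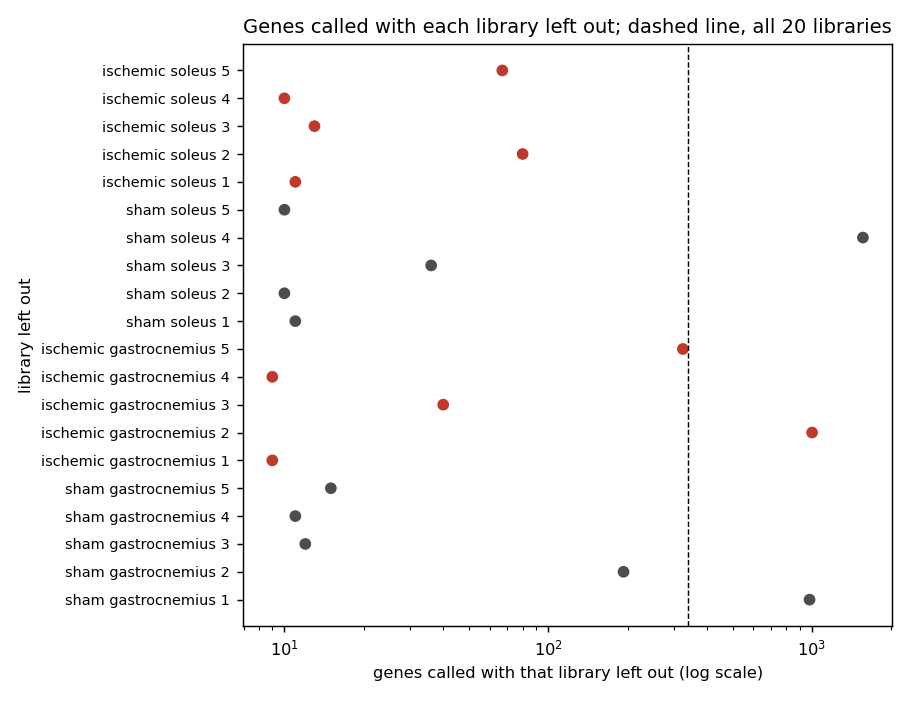
Number of genes called (x axis, log scale) when each of the 20 libraries (y axis) is left out, with the dashed line at 339 for all libraries. Most points lie near 10, and the 3 points above the line are sham gastrocnemius 1, ischemic gastrocnemius 2 and sham soleus 4.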

How the data were processed

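Poly(A) RNA of rat skeletal muscle was sequenced in 20 libraries, stranded and paired-ended per the labels' protocols. The deposited table holds an expected count per gene and library, and FPKM that the authors scaled by length and depth, per the file headers. The counts were whole numbers with a surplus of multiples of 4, so totals are not read as fragments. The aligner, counter and genome build were not given in the sources used. Genes with at least 1 FPKM in 5 libraries were kept. Treatment and muscle were the terms of a robust quasi-likelihood fit of TMM-scaled counts (edgeR 4.0.16 in R 4.3.3). Tests were two-sided with Benjamini-Hochberg adjustment over 11693 genes. The SE is the log2 fold change divided by the square root of F. A 4-group fit gave the values within muscles and the interaction. Alternatives used limma 3.58.1 and DESeq2 1.42.0.

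The genes and the 37 lists were chosen with earlier results of these data known. Named genes are the 12 called with and without sham soleus 4 in each direction with the largest smaller-of-both-muscles change and a mean of at least 1 FPKM, up to 2 members of lists with 3 or more calls, and a fixed panel. Myh1 and Myh2 were not analysed here. Libraries with the same replicate number were treated as sharing only a number. No batch is given in the labels.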

Additional observations from a re-analysis of the deposited data

Results flagged for a closer look

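For each named gene and library measure the 4 groups of 5 were searched for a library far from the others, by its gap to the nearest library over the range of its group. Of 196 groups 24 held such a library, against 9.8 that chance gives at about 1 in 20, and 16 of the 24 were sham soleus 4.

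Sham soleus 4 was far below its group for Thbs1 (0.724), Pxdn (0.767), Cd93 (0.89), Nrp2 (0.769), Nid2 (0.853), Adamts5 (0.717), Cd34 (0.744), Ryr3 (0.732), Fbxo32 (0.934), Hif1a (0.765) and the number of genes at 1 FPKM (0.918), where the value is the gap as a share of the range. It was far above its group for Bcat2 (0.848), Klf15 (0.81), Uxt (0.858), Psmc1 (0.801) and the mitochondrial share of counts (0.814).

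Other libraries lay far above their group, ischemic soleus 5 for Nkain1 (0.778) and Ppargc1a (0.713), ischemic soleus 4 for Adamts5 (0.844) and ischemic gastrocnemius 3 for Dll4 (0.75). Far below were ischemic soleus 1 for Asb9 (0.76), ischemic soleus 4 for Kiaa0408L (0.757), and ischemic gastrocnemius 2 for Myh7 (0.764) and for the slow minus fast fibre score (0.771). No named gene differed between the muscles at an adjusted p below 0.05, the smallest being 0.721 for Nqo1.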

How the results depend on the processing

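Of 339 called genes (240 higher, 99 lower), leaving out 1 library or 1 number left 0 to 1560 called, 0 to 793 higher, 0 to 767 lower, 0 to 1559 with 1 sign in both muscles and 0 to 761 in the stricter set of 228. A fit with the replicate number as a fixed block, which joins sham and ischemic libraries of a number, called 272 genes, 213 higher and 59 lower. Deviations of the same number in both muscles correlated at -0.172 to 0.259 in sham and 0 to 0.375 in ischemia, and not every library correlated best with its own number. Library totals alone gave 569 called (539 higher, 30 lower, 568 with 1 sign), 94.7% higher against 70.8%. DESeq2 size factors gave 339 (65.8% higher). No FPKM filter gave 10 (8 higher, 2 lower, 10 with 1 sign and 10 in the stricter set). Library quality weights gave 3238 (1749 and 1489), log2(FPKM + 1) 1320 (1269 and 51), log2(FPKM + 0.1) 586 (555 and 31), and the DESeq2 test 1319 (709 and 610). Means of both muscles per number gave 0 called in limma (0 and 0), with 2364 at an unadjusted p below 0.05. A random block for the same number in both muscles gave 354 (253 and 101). Chosen after seeing the data, the number of detected genes as a covariate gave 0 (0 and 0), those means without sham number 4 gave 0, and a random block without sham soleus 4 gave 994 (549 and 445). The causes were not tested. Other settings stayed within 1.5 times.

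With library totals alone, log2(FPKM + 1) and log2(FPKM + 0.1), the respiratory chain median turned from -0.32 to 0.0181, 0.0193 and 0.0197, and the calcium release median to 0.0555, 0.0887 and 0.092. On both FPKM scales the branched-chain median was -0.0861 and -0.0857 and the antioxidant median 0.1341 and 0.1405, turned from -0.1049, as with library totals alone (0.0775). The heat shock median turned from -0.1897 to 0.0994, 0.1545 and 0.1601 in these 3 settings, and the atrophy median went from -0.3379 to -0.0457, -0.0861 and -0.09. With the covariate, the respiratory chain median was 0.1302, the cytosolic ribosome median 0.2464, and those of basement membrane 0.30, interstitial matrix 0.39, endothelial 0.28, fibroblast 0.35, proteasome -0.14 and atrophy -0.15 genes. No called change of the 45 named genes turned its direction in any alternative, 960 of their values lost the call and 3 of Fbxo32 gained it. Genes under the FPKM filter were not tested, and at this depth nothing is said of them.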
